A study of Rattus norvegicus with 31 samples.

Results

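Clothianidin (CTD) and thiacloprid (THI) were compared directly in rat liver, with no control library in the contrast. The members were the 3 CTD and the 4 THI libraries, 7 of the 31 libraries of the study, and the 19904 genes with at least 2 counts summed over all 31. The animals were young adult female Wistar (Crl:WI) rats that received the compounds by oral gavage for 28 days. CTD was given at 288 mg/kg bw/day and THI at 108 mg/kg bw/day, both suspended in aqueous carboxymethyl-cellulose, which the 8 controls received alone. The doses were chosen from earlier studies of each compound, and both are the level that the study labels high for that compound. They are not equal in mg/kg, so the compound and its dose cannot be told apart. The mixtures with imazalil (IMZ), an azole fungicide, gave a second contrast of the same compounds: 4 libraries of IMZ + CTD (46 and 135 mg/kg bw/day) and 4 of THI + IMZ (54 and 46 mg/kg bw/day). The study's methods describe the animals of a group as independent biological replicates.

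Both compounds are neonicotinoids, insecticides that act on the nicotinic acetylcholine receptor of the insect nervous system. THI carries a chloropyridine ring and a cyanoimine group, while CTD carries a chlorothiazole ring and a nitroguanidine group. In liver, foreign compounds are handled by cytochrome P450 enzymes, conjugating enzymes and transporters, many of which are switched on through the nuclear receptors CAR and PXR. Hepatocytes of an adult liver are mostly outside the cell cycle, and activation of CAR is known to bring rodent hepatocytes into it. The transcripts of dividing cells come in waves, with the G1/S genes of DNA replication before the G2/M genes of chromosome segregation.

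The CTD libraries held 31.8 to 38.4 M counts, the THI libraries 35.3 to 54.8 M and the control libraries 32.7 to 101.2 M. In the study's read summary, CTD replicates 2 and 3 had the lowest shares of uniquely mapped reads of the whole series. The part of this in the results was not tested. The share of counts on mitochondrially encoded genes was 1.53 to 1.99% in CTD, 1.21 to 1.45% in THI and 0.882 to 1.51% in control. Levels are given as CPM, the counts per M (mega) counts of a library after TMM scaling, and differences as log2 fold changes of CTD minus THI from edgeR's quasi-likelihood test with Benjamini-Hochberg adjusted p, called under 0.05. In bulk tissue, fewer cells of a type and less RNA per cell cannot be told apart.

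The 3 CTD libraries stood apart from the whole series. For 207 genes all 3 lay above the other 28 libraries, and for 273 genes all 3 lay below them. The corresponding sums were 2 to 9 genes for the other treatment groups of 4 libraries and 16 genes for the 8 controls, although a group of 3 is beyond the others more easily than a larger group. Of these 480 genes, 407 were called in CTD against THI, where 6.62% of all genes were called. The 480 were selected on the same libraries, with THI among the others, so a high share was largely set by the selection. The study reports killing in moribund condition for the CTD group at this dose and not for the THI group at its dose. The sequenced CTD livers thus come from the animals that remained, and the part of this in the differences was not tested. Whether the compound at its dose or another property of these 3 libraries set them apart cannot be told apart, since no other group received CTD alone. The mixture THI + CTD received 134 mg/kg bw/day of CTD with 54 mg/kg bw/day of THI, and it served as a further reference for single genes.

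Scamp3, which encodes a membrane protein of the recycling endosome, had the smallest p of all genes. It measured 11.2, 11.9 and 12.6 CPM in the CTD libraries and 33.1, 35.9, 38.3 and 42.0 CPM in the THI libraries, against 35.4, 39.4 and 44.7 CPM for the lowest, median and highest control. The difference was -1.65 ± 0.10 (SE; adjusted p = 1.65e-12 by edgeR). The remaining 28 libraries held 33.1 to 46.5 CPM, and the THI + CTD libraries alone 38.3 to 45.3 CPM, so the CTD values lay far under every other library. Serping1, Idh1, Slc10a7 and Ociad1 were added after their values were seen because of the same separation. Serping1, the C1 inhibitor of the complement system, measured 180.1, 147.5 and 146.0 CPM in CTD and 343.5, 399.8, 452.8 and 408.6 CPM in THI (-1.35 ± 0.11, adjusted p = 1.42e-09). Idh1, the cytosolic NADP-dependent isocitrate dehydrogenase, measured 223.0, 261.9 and 246.2 CPM in CTD and 416.2 to 615.2 CPM in THI (-0.99 ± 0.12). Both had no THI + CTD library below 364.6 CPM and 454.2 CPM, respectively. Ociad1 was set apart upwards, with 70.3 to 76.2 CPM in CTD and 38.2 to 48.6 CPM over the 28 others.

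**Figure D1:**
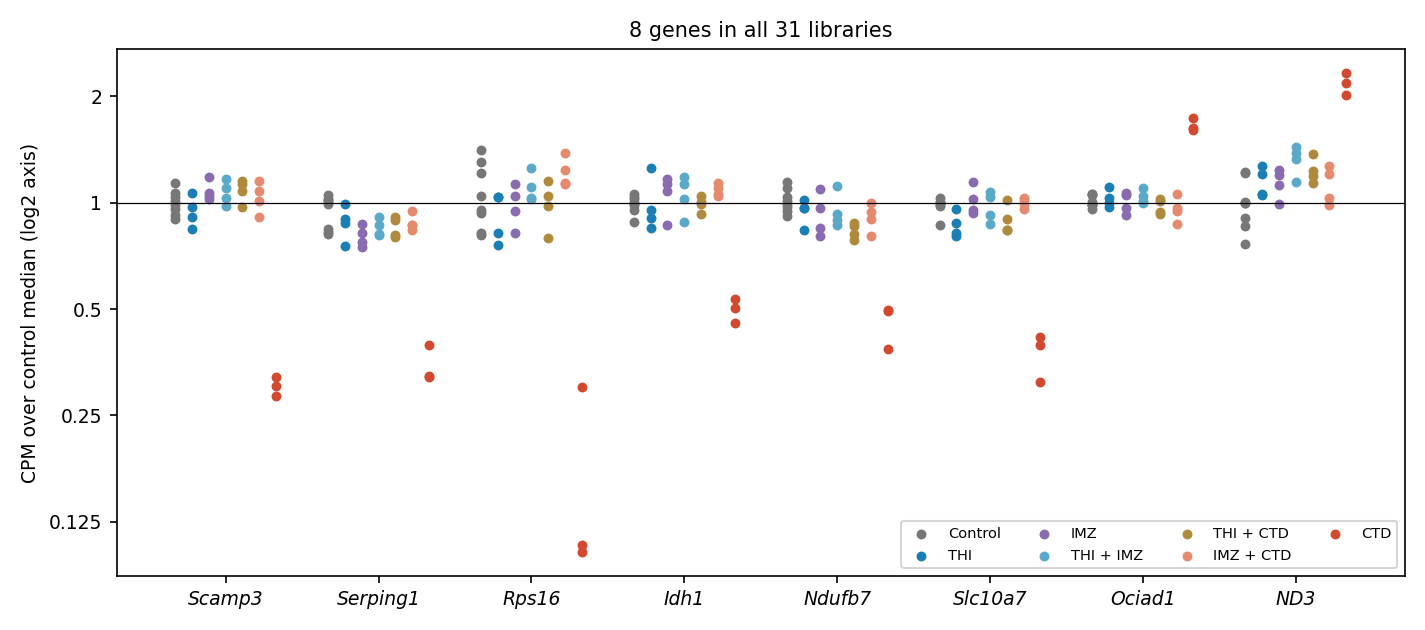
Level of 8 genes in all 31 libraries as CPM divided by the control median, on a log2 axis; each point is 1 library and colours give the 7 groups. The 3 CTD libraries lay below all 28 others for Scamp3, Serping1, Rps16, Idh1, Ndufb7 and Slc10a7 and above them for Ociad1 and ND3.

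In CTD against THI, 1317 genes were differentially expressed genes (DEGs), 6.62% of those tested, with 680 up-regulated in CTD (3.42%) and 637 down-regulated (3.2%). At an unadjusted p under 0.05 there were 3848. Of the up-regulated genes 254 differed by more than 1 log2 unit, and of the down-regulated genes 88. All 3 CTD libraries lay above all 4 THI libraries for 600 of the up-regulated genes and below them for 591 of the down-regulated ones. Over all 19904 genes tested these counts were 1297 and 1404, so the separation was also common among genes that were not called. It rests on the same libraries as the calls. The up-regulated genes had a median difference of 0.67 from THI, with 0.59 for CTD against control and -0.05 for THI against control. For the down-regulated genes these medians were -0.52, -0.50 and 0.03. The contrasts against the 8 controls share libraries with each other and with the direct contrast; they called 2518 genes for CTD (12.7%) and 108 for THI (0.543%). Leaving out CTD replicate 1 lowered the direct count to 603 DEGs, and a fit of the 7 libraries alone gave 472.

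The 12 highest fold changes were taken among DEGs with an average level over 1 CPM whose groups did not overlap. The highest was that of Ckap2, a spindle protein, which measured 21.6, 4.86 and 6.80 CPM in CTD and 0.754, 0.995, 0.193 and 0.214 CPM in THI. The controls held 0.603, 0.764 and 1.52 CPM (lowest, median, highest), so the CTD libraries lay above both groups and the THI libraries within or below the control range. The difference was 4.31 ± 0.65 (19.9-fold, adjusted p = 7.8e-05). Others of the 12 were Pbk, a mitotic kinase (3.98 ± 0.65), Cdca3, which is needed for mitotic entry (3.89 ± 0.63), the condensin subunit Ncapg (3.81 ± 0.68), the kinase Nek2l1 (3.75 ± 0.68) and the kinetochore protein Nuf2 (3.70 ± 0.61). Ttk, the kinase of the spindle checkpoint (3.55 ± 0.62), Fam111a (3.49 ± 0.57), Nusap1, which bundles spindle microtubules (3.45 ± 0.63), and Top2a were also among them. Rrm2, the small subunit of ribonucleotide reductase that makes deoxynucleotides, was also among the 12, as a pair of gene models (4.09 ± 0.74 and 3.86 ± 0.65), between which reads may be split, so the level of each is uncertain.

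The promoters of 3 of these genes are shown because the cell division genes moved together, and because genes of the G2/M wave are known to share the CHR element and the CCAAT box. Each covers 250 bases before and 50 after the start site, from RefSeq (build GRCr8), 5′ to 3′ on the gene's strand. Capitals mark TTTGAA or its reverse complement TTCAAA (the CHR element) and CCAAT or its reverse complement ATTGG, which do not overlap each other here. Top2a lies at chr10:84473044-84473343 on the minus strand, Nusap1 at chr3:127057045-127057344 on the plus strand and Ttk at chr8:93634389-93634688 on the plus strand.
Top2a: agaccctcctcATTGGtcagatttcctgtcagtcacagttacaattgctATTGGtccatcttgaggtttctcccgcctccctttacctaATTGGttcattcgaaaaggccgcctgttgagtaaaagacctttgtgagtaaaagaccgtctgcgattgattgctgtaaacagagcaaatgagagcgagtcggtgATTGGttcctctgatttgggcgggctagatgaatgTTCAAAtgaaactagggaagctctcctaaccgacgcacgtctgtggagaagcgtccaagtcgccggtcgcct
Nusap1: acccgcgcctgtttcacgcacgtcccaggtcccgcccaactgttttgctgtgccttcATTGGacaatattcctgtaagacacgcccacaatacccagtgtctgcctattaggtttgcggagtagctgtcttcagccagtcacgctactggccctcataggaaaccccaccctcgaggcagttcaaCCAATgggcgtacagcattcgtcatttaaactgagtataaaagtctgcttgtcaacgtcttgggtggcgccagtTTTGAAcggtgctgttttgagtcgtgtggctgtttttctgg
Ttk: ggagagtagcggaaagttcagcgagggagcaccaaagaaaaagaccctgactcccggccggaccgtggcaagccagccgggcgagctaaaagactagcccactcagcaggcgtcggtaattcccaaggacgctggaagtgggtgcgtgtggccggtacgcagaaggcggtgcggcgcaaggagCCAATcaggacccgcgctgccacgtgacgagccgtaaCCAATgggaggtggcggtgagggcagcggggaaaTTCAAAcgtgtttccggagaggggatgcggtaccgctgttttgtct
Of the 37 cell division genes tested, 29 matched a promoter by symbol, and 20 of these held the CHR letters (69%), against 18.3% of all 33469 promoters of the table and 12.6% of the 11978 that belong to tested genes. CCAAT or its reverse complement was in 21 of the 29 (72.4%), against 37.5% and 37.3%. A match of letters is a description of the window and not a bound site.

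Of the 37 cell division genes tested, 36 were up-regulated in CTD (97.3%, against 3.42% of all genes) and none was down-regulated. Their median difference was 2.88 (range 1.37 to 3.98), against a median of 0 over all genes. Their summed level was 398.2, 139.6 and 117.1 CPM in the CTD libraries and 38.5, 48.3, 20.9 and 27.9 CPM in the THI libraries, and 21.1 to 48.5 CPM in the controls. The CTD libraries thus lay above all THI and control libraries, while THI and control overlapped, and CTD replicate 1 was the highest. The THI + CTD libraries, at 52.8 to 135.2 CPM, overlapped the CTD libraries. Top2a, the topoisomerase that untangles replicated chromosomes, measured 57.8, 18.6 and 16.5 CPM in CTD and 3.50, 4.71, 0.799 and 1.69 CPM in THI, with controls at 1.33, 2.78 and 5.12 CPM (lowest, median, highest). It rose by 3.51 ± 0.58 (11.4-fold, adjusted p = 0.000199), and its difference stayed at 2.69 or more in every alternative fit. Cdk1, the kinase that drives entry into mitosis, measured 13.01, 5.09 and 2.77 CPM against 0.674, 0.976, 0.414 and 1.05 CPM (3.14 ± 0.52). Its partner cyclin Ccnb1 (3.23 ± 0.62) and the proliferation marker Mki67 (2.67 ± 0.52), with 45.2, 15.8 and 10.9 CPM against 1.49 to 5.28 CPM, did not overlap between the groups either. Cdk1, Ccnb1 and Mki67 were picked as known markers after their values were seen. The kinesin Kif11, which separates the spindle poles, had the smallest p among the members that are not also among the extremes (3.16 ± 0.50, adjusted p = 0.000134). Ube2c, a ubiquitin-conjugating enzyme of mitotic exit, was the member that missed the threshold (2.18 ± 0.70, adjusted p = 0.0549). Without CTD replicate 1, 17 members were called and the median was 2.08.

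**Figure D2:**
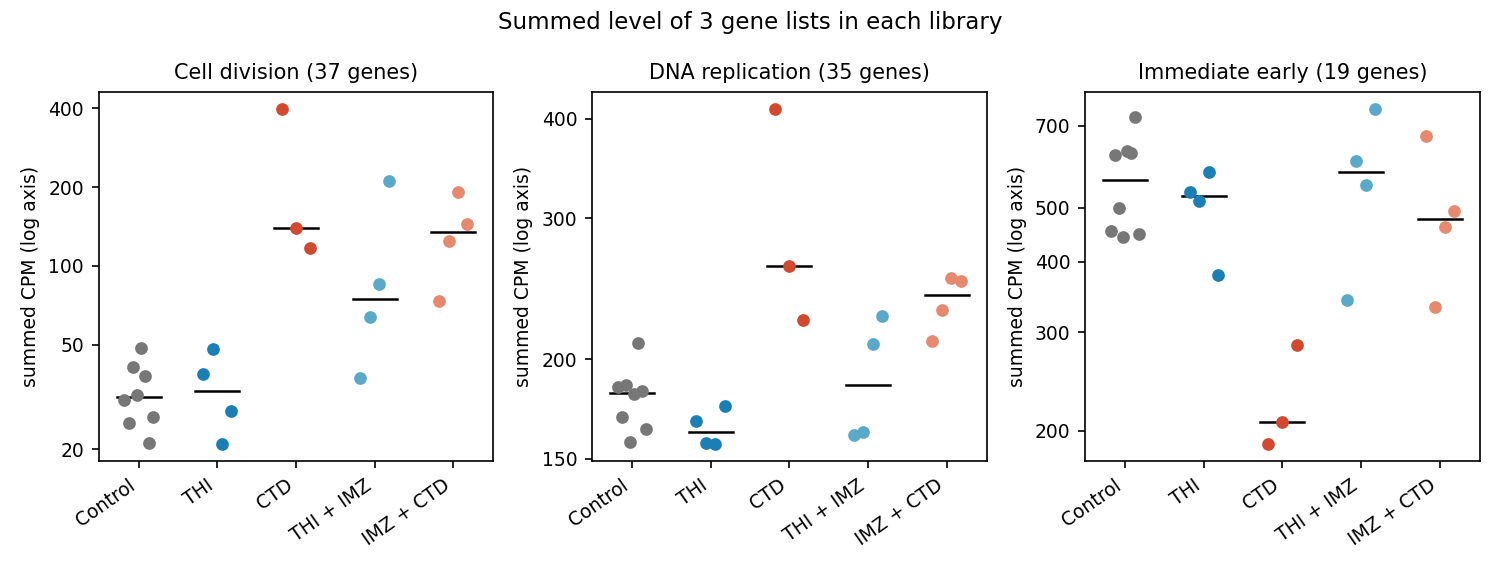
Summed CPM (log axis) of the members of 3 gene lists in the control, THI, CTD, THI + IMZ and IMZ + CTD libraries; each point is 1 library and the bar is the median. The 3 CTD libraries lay above all control and THI libraries for cell division (117.1 to 398.2 CPM) and DNA replication genes and below them for immediate early genes (189.3 to 284.8 CPM).

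Of 35 genes of DNA replication tested, 24 were up-regulated (68.6%, against 3.42% of all genes) and none was down-regulated, with a median difference of 1.00. Their summed level was 224.0 to 411.5 CPM in CTD, 156.5 to 174.9 CPM in THI and 157.5 to 209.4 CPM in control. The subunits of the MCM helicase, which unwinds DNA at the fork, were all up-regulated. Mcm6 measured 27.2, 10.5 and 10.5 CPM in CTD and 2.96, 2.06, 3.42 and 2.00 CPM in THI, with 2.26, 3.26 and 4.61 CPM in the lowest, median and highest control. Its difference was 2.63 ± 0.39 (6.19-fold, adjusted p = 6.42e-05), with no overlap of CTD and THI. The other subunits were Mcm5 (2.84 ± 0.54), Mcm3 (2.17 ± 0.37), Mcm4 (1.37 ± 0.19), Mcm2 (1.00 ± 0.20) and Mcm7 (0.84 ± 0.20), of which Mcm7 overlapped, at 10.2 to 23.8 CPM in CTD and 7.25 to 12.2 CPM in THI. Chaf1a, the large subunit of the factor that places histones on new DNA, rose by 1.67 ± 0.24. Pcna, the sliding clamp of the polymerases, measured 18.6 to 34.0 CPM against 12.1 to 14.2 CPM (0.92 ± 0.16). Mcm2, Mcm3, Mcm5, Mcm7 and Pcna were named after their values were seen to complete the complex. Without CTD replicate 1 the count was 11 of 35, and in the fit of the 7 libraries alone 15.

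The promoters of Mcm6 (chr13:42404303-42404602, minus strand) and Chaf1a (chr9:960975-961274, plus strand) are shown with the same limits and source because replication genes are known to carry E2F sites. Capitals mark GGCGC, the E2F core, searched with its reverse complement GCGCC.
Mcm6: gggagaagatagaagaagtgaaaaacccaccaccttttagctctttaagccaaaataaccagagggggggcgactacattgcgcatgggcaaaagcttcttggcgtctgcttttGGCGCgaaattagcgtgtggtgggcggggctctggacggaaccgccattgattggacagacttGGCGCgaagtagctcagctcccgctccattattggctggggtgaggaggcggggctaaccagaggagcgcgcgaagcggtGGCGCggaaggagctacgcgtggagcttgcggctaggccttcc
Chaf1a: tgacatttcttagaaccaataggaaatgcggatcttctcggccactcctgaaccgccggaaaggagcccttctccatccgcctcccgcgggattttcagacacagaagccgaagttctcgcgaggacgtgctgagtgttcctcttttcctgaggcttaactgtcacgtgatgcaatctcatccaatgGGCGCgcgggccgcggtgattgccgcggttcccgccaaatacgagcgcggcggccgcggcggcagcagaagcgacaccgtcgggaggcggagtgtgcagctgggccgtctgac
The letters were in 25 of the 29 replication genes with a promoter (86.2%), against 34.2% of all promoters and 57.4% of those of tested genes.

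Of 23 cyclins of G1, their kinases and E2F factors, 9 were up-regulated (39.1%, against 3.42% of all genes) and none was down-regulated (median 0.58). Ccne1, the cyclin that starts S phase with Cdk2, measured 4.03, 2.95 and 1.14 CPM in CTD, 0.189, 0.319, 0.221 and 0.405 CPM in THI and 0.293, 0.527 and 0.802 CPM in the lowest, median and highest control. It rose by 3.23 ± 0.44 (9.39-fold, adjusted p = 2.53e-05) without overlap. Ccne2 (2.68 ± 0.44) and the transcription factor E2f1 (2.23 ± 0.36) rose as well. Ccnd1, the D-type cyclin that responds to growth signals, measured 51.4, 45.7 and 26.8 CPM in CTD and 23.7, 22.2, 13.6 and 15.7 CPM in THI (1.14 ± 0.23, adjusted p = 0.00165), and was named after its values were seen. Without CTD replicate 1, 5 of the 23 were called.

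Of 27 genes of DNA damage signalling and repair, 15 were up-regulated (55.6%, against 3.42% of all genes) and none was down-regulated (median 0.81). Without CTD replicate 1, 3 of them were called. Among the members with the smallest p were Fancd2 (2.49 ± 0.42) and Fanci (2.17 ± 0.41), the paired proteins of the Fanconi anaemia pathway for crosslinked DNA. Fancd2 measured 6.27, 1.91 and 2.25 CPM in CTD and 0.458 to 0.694 CPM in THI, which did not overlap. The controls, at 0.878 to 1.76 CPM, lay between these groups. Of 40 histone genes, 16 were up-regulated and 1 was down-regulated (42.5% called, against 6.62% of all genes, median 0.89). Without CTD replicate 1 these were 7 and 1. The summed level of the list overlapped, at 372.0 to 576.8 CPM in CTD and 372.2 to 465.4 CPM in THI. Hist1h2bg measured 34.0, 16.8 and 16.8 CPM in CTD and 6.23 to 8.38 CPM in THI (1.63 ± 0.25), and Hist1h2ah rose by 1.76 ± 0.28. Copies of histone genes are nearly identical, so reads may be shared among them and the level of each copy is uncertain. Slbp, the protein that binds the stem-loop at the end of replication-dependent histone transcripts, measured 28.4, 22.0 and 21.3 CPM in CTD and 14.5 to 16.1 CPM in THI (0.65 ± 0.09, adjusted p = 4.42e-05).

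Of 24 targets of p53, the factor that halts the cycle after DNA damage, 2 were up-regulated and 2 down-regulated (median -0.09). The called share was 16.7%, against 6.62% of all genes. Cdkn1a, the inhibitor p21 of cyclin-dependent kinases, measured 13.97, 6.72 and 13.2 CPM in CTD, 3.48, 4.54, 5.18 and 5.07 CPM in THI and 8.70, 11.8 and 16.8 CPM in the lowest, median and highest control. It was higher in CTD than in THI by 1.30 ± 0.29 (adjusted p = 0.00434), with no overlap. Against the shared controls the difference was -0.19 for CTD (adjusted p = 0.681) and -1.49 for THI (adjusted p = 0.00103). All 4 THI libraries and CTD replicate 2 lay below the lowest control. Tp53inp1 had the same order, with 21.1 to 33.5 CPM in CTD, 13.95 to 18.6 CPM in THI and 20.1 to 36.5 CPM in control (0.66 ± 0.16). The kinase Plk3 was lower in CTD (-1.30 ± 0.31), with 1.85 to 3.54 CPM against 4.38 to 7.84 CPM. Pmaip1 was at 0 counts in CTD replicates 2 and 3 and at 0.0714 to 0.150 CPM in THI, which is too few counts for a size.

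**Figure D3:**
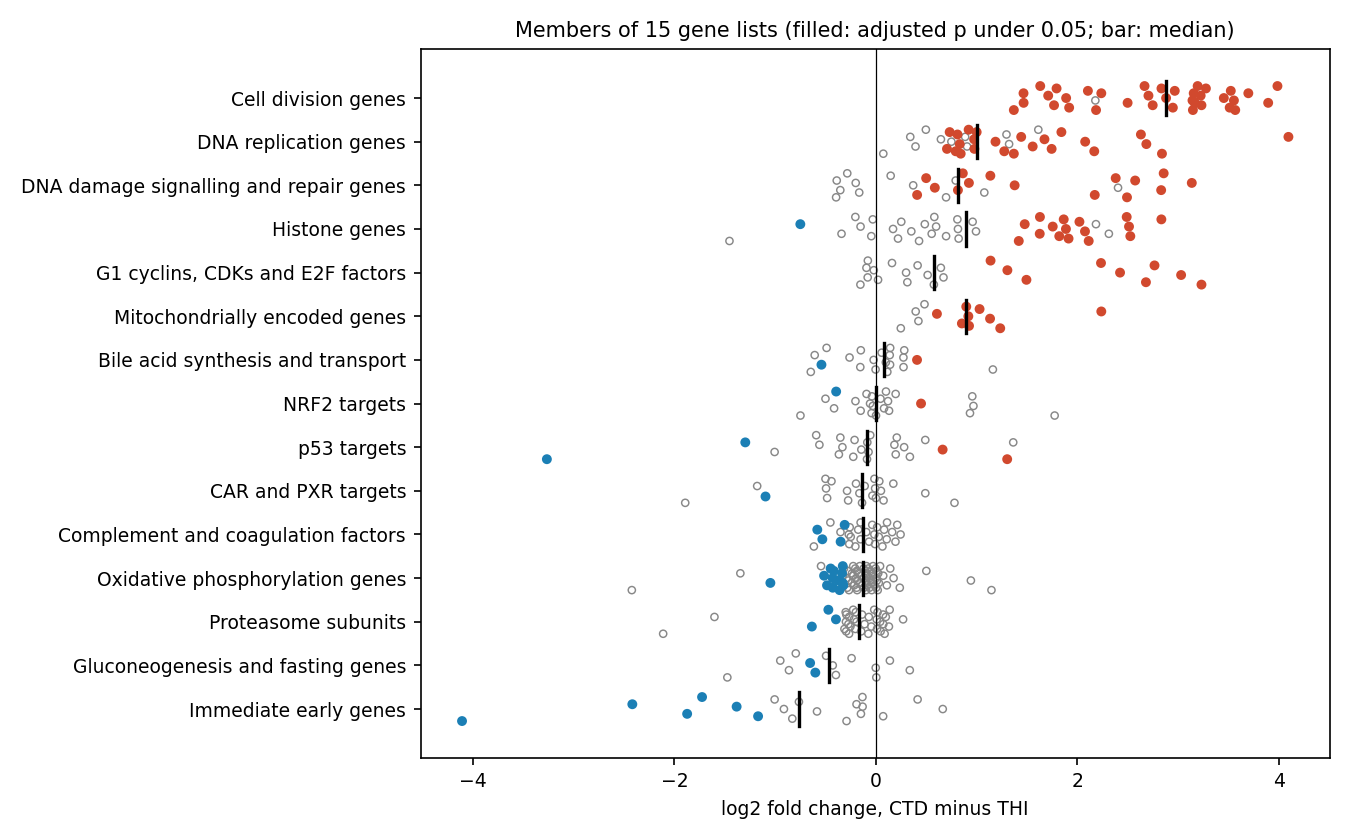
Log2 fold change of CTD minus THI for each member of 15 gene lists; filled points passed the adjusted p of 0.05 (red higher in CTD, blue lower), open points did not, and the bar is the median of the list. Cell division genes had the highest median (2.88), while immediate early genes had the lowest (-0.76) with 6 members called lower.

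The targets of CAR and PXR showed 1 DEG among 23 (4.35%, against 6.62% of all genes), and 5 of the 28 genes of the list had no match by symbol. Por, the reductase that supplies electrons to all microsomal P450 enzymes, measured 91.6, 146.7 and 69.2 CPM in CTD and 248.9, 270.0, 208.8 and 151.4 CPM in THI, against 113.0, 130.9 and 164.6 CPM in the lowest, median and highest control. The groups did not overlap, although CTD replicate 2 and THI replicate 4 came close. The difference was -1.10 ± 0.27 (2.14-fold lower in CTD, adjusted p = 0.00953), and without CTD replicate 1 or replicate 3 no member of the list was called. Cyp2b1, the classical CAR target, was added after its values were seen. It measured 13.99, 178.5 and 20.9 CPM in CTD and 325.4, 220.7, 331.5 and 179.9 CPM in THI, with at most 0.998 CPM in the controls. CTD replicate 2 was close to the lowest THI library, and the others were far below. The difference was -1.89 with a 95% interval of -3.78 to -0.007 and an adjusted p of 0.256, so it was not resolved from the spread of the libraries. Cyp2b2 measured 116.9, 420.6 and 212.0 CPM in CTD and 272.6 to 467.4 CPM in THI, which overlapped (-0.44, interval -1.53 to 0.65). Against the shared controls (1.51 to 12.1 CPM), Cyp2b2 was higher by 5.36 in CTD and by 5.80 in THI. Cyp3a23/3a1, a PXR target with a second gene model that makes its level uncertain, was at 0.369 to 0.905 CPM in CTD and 1.32 to 1.73 CPM in THI, with no overlap and an adjusted p of 0.0972. The summed level of the 23 genes was 13700 to 15070 CPM in CTD and 13190 to 18530 CPM in THI.

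Among other genes of foreign compound metabolism few were called. Of 66 cytochrome P450 genes, 1 was higher and 3 were lower in CTD, a share of 6.06% that is close to the background of 6.62%. None was called without CTD replicate 1 or in the fit of the 7 libraries alone. Cyp39a1, an oxysterol hydroxylase, measured 98.0 to 125.9 CPM in CTD and 150.7 to 161.7 CPM in THI (-0.46 ± 0.14). Cyp4f4 (-0.25 ± 0.08) and Cyp2d4 (-0.53 ± 0.16) were lower as well, and Cyp2r1, a vitamin D hydroxylase, was higher (0.40 ± 0.12). No target of the aryl hydrocarbon receptor among 9 passed the threshold by edgeR or DESeq2 (1 at an unadjusted p under 0.05), and Cyp1a2 had 1665 to 1946 CPM in CTD and 1336 to 2207 CPM in THI (interval of the difference -0.37 to 0.55). Of 23 targets of NRF2, the factor of the oxidative stress response, 1 rose (Gclm, the regulatory subunit of glutathione synthesis, 0.45 ± 0.13) and 1 fell (Keap1, the repressor of NRF2, -0.39 ± 0.09). This called share of 8.7% was near the 6.62% of all genes, and none was called in the fit of the 7 libraries alone. Nqo1 showed -0.06 with an interval of -0.73 to 0.61. Of 21 glutathione S-transferases, Gsto2 was called at very low level (-1.58 ± 0.41, 0.130 to 0.181 CPM against 0.350 to 0.634 CPM). Of 22 genes of glucuronidation and sulfation, the sulfotransferase Sult1b1 rose from 227.8 to 241.5 CPM in THI to 298.9 to 368.9 CPM in CTD (0.48 ± 0.12). The called shares of the glutathione S-transferases and of this list were 4.76% and 4.55%, against 6.62% of all genes.

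Over the 11297 genes with an average level above 1 CPM, the median half-width of the 95% interval was 0.30 log2 units. The whole interval lay within 1 log2 unit of 0 for 88.2% of them and within 0.5 log2 units for 48.3%. For such genes the depth and the number of animals thus set an upper bound on the difference between the compounds, which a missed threshold alone does not give.

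Of the 13 protein genes encoded by mitochondrial DNA, 9 were up-regulated in CTD and none was down-regulated, with a median of 0.90. Their summed level was 15240 to 19440 CPM in CTD, 12680 to 14470 CPM in THI and 8702 to 15280 CPM in control, so CTD lay above THI but overlapped the controls slightly. ND3, a subunit of complex I, measured 271.3, 251.2 and 288.9 CPM in CTD and 157.3, 150.1, 131.7 and 130.8 CPM in THI, with controls at 94.8, 124.1 and 151.6 CPM (lowest, median, highest). It rose by 0.92 ± 0.13 (1.9-fold, adjusted p = 2.55e-05), and no other library of the series exceeded 178.2 CPM. MT-ATP8, a small subunit of ATP synthase whose gene overlaps that of MT-ATP6, measured 2.73, 4.50 and 6.03 CPM against 0.571 to 1.14 CPM (2.24 ± 0.31). MT-ND2 rose by 1.23 ± 0.21, MT-ND4L by 1.13 ± 0.20, MT-ND4 by 1.03 ± 0.21, MT-ND6 by 0.92 ± 0.24, MT-ND5 by 0.90 ± 0.23, MT-ATP6 by 0.85 ± 0.18 and MT-CO3 by 0.61 ± 0.15. MT-CO2 (0.42, adjusted p = 0.0552), CYTB (0.48, adjusted p = 0.114), ND1 (0.40, adjusted p = 0.172) and COI (0.25, adjusted p = 0.359) did not pass. ND3, MT-ATP8 and MT-ND2 came from the naming rule, and the others were named to complete the list. The count was 9 without CTD replicate 1, and without CTD replicate 3 it was 7, where MT-CO3 (adjusted p = 0.112) and MT-ND5 (adjusted p = 0.0577) were not called. The count was 8 without THI replicate 3, where MT-ND6 was not called (adjusted p = 0.0514).

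The subunits of the same complexes encoded in the nucleus went the other way in part. Of 78, none was up-regulated and 13 were down-regulated, 16.7% against the background of 3.2%, with a median of -0.13. Ndufb7 of complex I measured 19.4, 25.1 and 24.9 CPM in CTD and 42.2, 48.9, 51.3 and 48.9 CPM in THI, with controls at 46.2, 50.5 and 57.9 CPM (-1.05 ± 0.11, adjusted p = 3.68e-07). Cox4i1 of complex IV was at 189.7, 191.1 and 219.9 CPM in CTD and 263.7 to 297.3 CPM in THI (-0.48 ± 0.08), and Ndufa3 at 30.9 to 35.01 CPM and 41.8 to 50.9 CPM (-0.51 ± 0.10). None of these overlapped. All 3 also lay below their control ranges. The list had 7 genes called without CTD replicate 1 or without THI replicate 3, and 3 in the fit of the 7 libraries alone, so that its count rested on the libraries used. The summed levels, 7449 to 8955 CPM in CTD and 8563 to 9404 CPM in THI, overlapped.

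**Figure D4:**
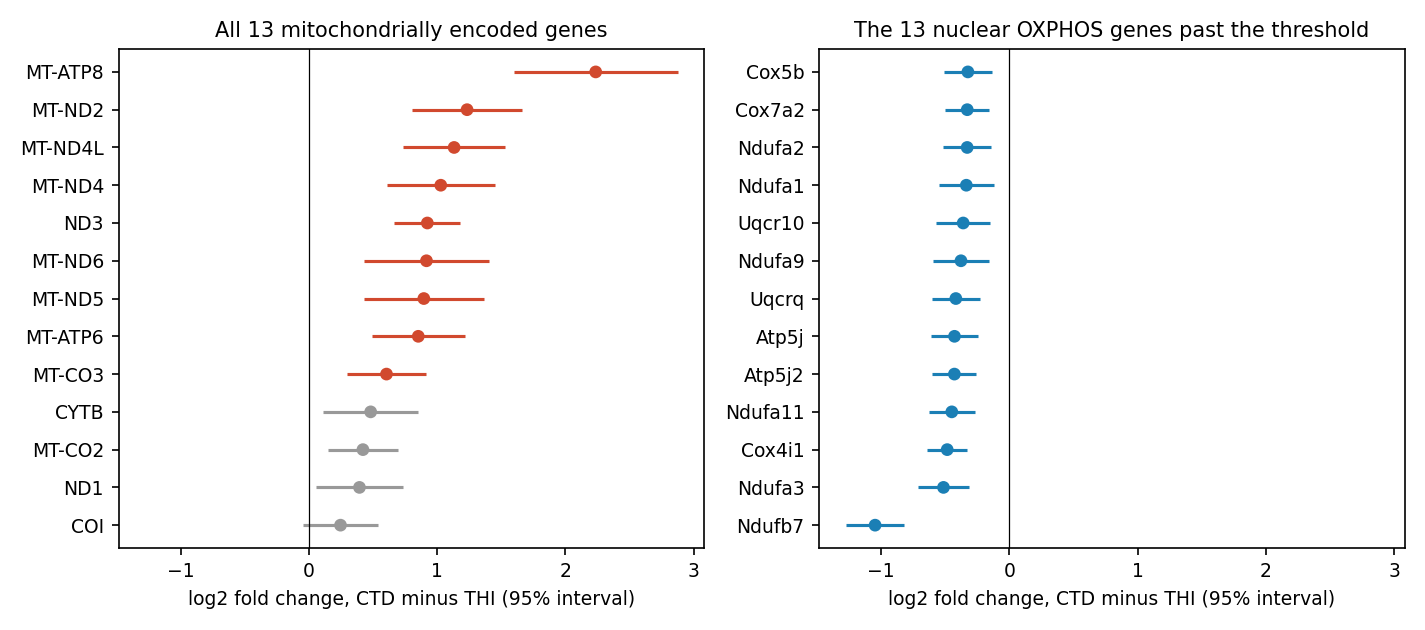
Log2 fold change of CTD minus THI with its 95% interval for all 13 genes of mitochondrial DNA (left) and for the 13 of 78 nuclear genes of oxidative phosphorylation that passed the threshold (right); grey marks an adjusted p of 0.05 or more. The 9 called mitochondrial genes were higher in CTD, by 0.61 to 2.24, and the called nuclear genes lower, Ndufb7 by the largest size (-1.05).

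Among 93 genes of cytosolic ribosomal proteins, 2 were higher and 5 lower (7.53% called, near the 6.62% of all genes, median -0.08). Rps16 measured 20.0, 7.16 and 6.86 CPM in CTD and 50.6, 54.9, 69.2 and 69.1 CPM in THI (-2.42 ± 0.26, adjusted p = 3.68e-07), while Rps28 (-0.56 ± 0.09) and Rpl38 (-0.40 ± 0.08) were lower by less and Rps24 (0.35 ± 0.07) and Rpl22l1 (0.76 ± 0.17) higher. Ribosomal protein genes have many processed copies in the genome, among which reads may be split. Of 38 proteasome subunits 3 were lower (7.9%, against 3.2% of all genes), Psmd3 (-0.64 ± 0.12), Psmc3 (-0.47 ± 0.12) and Psmd8 (-0.40 ± 0.10). Without CTD replicate 1 this count was 2, and in the fit of the 7 libraries alone it was 1.

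Immediate early genes respond to growth factors and stress within minutes. Of 19 tested, 6 were down-regulated (31.6%, against the background of 3.2%) and none was up-regulated, with a median of -0.76. Their summed level was 189.3 to 284.8 CPM in CTD, 379.6 to 579.4 CPM in THI and 443.4 to 726.0 CPM in control, while THI + CTD, at 232.8 to 448.3 CPM, overlapped CTD. Egr1, a zinc finger factor, measured 2.24, 4.03 and 7.60 CPM in CTD, 21.1, 26.9, 32.6 and 17.5 CPM in THI and 17.7, 29.2 and 60.2 CPM in the lowest, median and highest control (-2.42 ± 0.65, adjusted p = 0.0191). The groups did not overlap, and THI lay within the control range. The AP-1 subunits Junb (14.2 to 26.3 CPM against 56.0 to 102.6 CPM, -1.87 ± 0.49) and Jun (16.8 to 27.1 CPM against 28.95 to 99.2 CPM, -1.72 ± 0.48) and the phosphatase Dusp1 (40.0 to 75.3 CPM against 90.9 to 172.4 CPM, -1.38 ± 0.32) had the same order. The remaining DEGs of the list were Ier2 (-1.17 ± 0.33) and Egr2, which was at 0 counts in CTD replicates 2 and 3 and is given without a size. They were named after their values were seen. Without CTD replicate 1 or CTD replicate 2 the count was 1, and without THI replicate 3 it was 2.

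Of the DEGs over 1 CPM whose groups did not overlap, Scd had the largest decrease in CTD. It encodes the stearoyl-CoA desaturase that makes monounsaturated fatty acids and measured 44.8, 120.0 and 11.7 CPM in CTD, 522.7, 945.7, 358.1 and 341.5 CPM in THI and 50.9, 133.6 and 700.8 CPM in the lowest, median and highest control. The difference was -3.20 ± 0.86 (9.2-fold lower, adjusted p = 0.0197). CTD and THI did not overlap, but the controls spanned most of the range of both, and neither compound passed the threshold against them (-1.95 for CTD, adjusted p = 0.0927, and 1.25 for THI, adjusted p = 0.551). Scd was the single DEG of 20 genes of lipogenesis and glucose sensing. Gdf15, a stress hormone of the TGF-beta family, was lower in CTD by 2.38 on the log2 scale (adjusted p = 0.00875). It measured 8.51, 7.73 and 7.32 CPM in CTD and 48.6, 49.3, 51.1 and 14.9 CPM in THI, with controls at 19.2, 22.8 and 52.8 CPM. THI replicate 4 was far below the other THI libraries and the CTD libraries below every control. The others of the rule at the lower end were Fam198a (-1.86 ± 0.49), Gm6484 (-1.83 ± 0.52), Zfhx2 (-1.75 ± 0.44), the ephrin receptor Epha3 (-1.66 ± 0.49) and Rab27a, a GTPase of vesicle docking (-1.47 ± 0.31).

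Genes of glucose and amino acid metabolism were mostly not called, but some shares exceeded the 6.62% of all genes. Of 14 genes of gluconeogenesis and fasting, Foxo1, a factor that insulin holds out of the nucleus, fell (6.83 to 8.04 CPM against 9.83 to 13.5 CPM, -0.60 ± 0.16), as did Gpt, alanine aminotransferase (-0.65 ± 0.19), with a median of -0.46 for the list. Agxt, the peroxisomal enzyme that removes glyoxylate, was the DEG among 19 periportal enzymes (-0.59 ± 0.15). Of 15 pericentral genes, Rgn (0.49 ± 0.15) and Rnf43, an inhibitor of Wnt receptors (0.80 ± 0.25), were higher. The called shares were 14.3% for gluconeogenesis and fasting, 5.26% for periportal and 13.3% for pericentral genes. Without CTD replicate 1 these lists held 0, 0 and 1 DEGs. In the integrated stress response, Asns, asparagine synthetase, measured 3.36, 2.22 and 1.94 CPM in CTD and 0.303 to 0.844 CPM in THI (2.07 ± 0.48, adjusted p = 0.00633). Mthfd2, a mitochondrial folate enzyme, rose by 1.92 ± 0.47. The ER stress sensor Ern1 (-0.48 ± 0.10) and the ER chaperone Hsp90b1 (-0.64 ± 0.17) fell, which left 2 higher and 2 lower of 29. The called share was 13.8%, and none of the 29 was called without CTD replicate 1.

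Bile acid and sterol genes held few DEGs, with shares on either side of the 6.62% of all genes. Slco1b3, an uptake transporter of hepatocytes, measured 1165 to 1350 CPM in CTD and 870.2 to 988.0 CPM in THI (0.41 ± 0.10), and Klb, the co-receptor of FGF signals that restrain bile acid synthesis, fell by 0.54 on the log2 scale. These were the DEGs among 20 genes of bile acid synthesis and transport (10%). Cyp7a1, the rate-limiting enzyme of bile acid synthesis, was at 41.3 to 161.3 CPM in CTD and 15.95 to 60.7 CPM in THI, which overlapped (1.16, interval -0.06 to 2.39, adjusted p = 0.291). Of 24 cholesterol synthesis genes Tm7sf2, a sterol reductase, fell (-0.54 ± 0.12), and of 29 targets of PPAR alpha the thiolase Acaa1a (-0.43 ± 0.10). The called shares of these lists were 4.17% and 3.45%.

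Counts of secreted liver proteins are read against the 3.2% of all genes that were called lower. Of 30 complement and coagulation factors 4 fell (13.3%), including F12, factor XII (730.4, 763.9 and 783.8 CPM in CTD against 976.0 to 1292 CPM in THI, -0.58 ± 0.09, adjusted p = 0.000156), C8g (-0.53 ± 0.12) and Proc, protein C (-0.35 ± 0.09). Of 22 acute phase proteins 3 fell (13.6%), Hpx, the haem scavenger hemopexin (3041 to 3541 CPM against 4383 to 5635 CPM, -0.56 ± 0.11), Lbp, which binds lipopolysaccharide (-1.06 ± 0.27), and Cd14 (-0.54 ± 0.15). Apoa2 was the DEG among 20 transport proteins and apolipoproteins (-0.44 ± 0.13), a share of 5% that is near the background. Stat5b, a signal transducer of growth hormone (-0.38 ± 0.08), was the DEG among 14 genes of its list. Stat2 (-0.54 ± 0.11) and Ifi27 (-0.70 ± 0.15), both lower, were the DEGs among 29 interferon genes (6.9%, against the 3.2% called lower). Without CTD replicate 1 these lists held 2 (complement and coagulation), 1 (acute phase), 0 (transport proteins and STAT5) and 1 (interferon) DEGs.

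Neonicotinoid targets and possible activating enzymes held 1 DEG in each list. Of 17 nicotinic receptor subunits and cholinergic enzymes, Chrna5 was called, at 0.312, 0.362 and 0.861 CPM in CTD and 0.0269 to 0.165 CPM in THI, with controls from 0.0154 to 0.495 CPM. The called share of this list was 5.88%, against 6.62% of all genes. Of its members, 13 stayed under 1 CPM in every CTD and THI library. The call of Chrna5 was lost in 7 alternative fits. Molybdenum enzymes, among which aldehyde oxidase is known to reduce the nitroguanidine group of neonicotinoids, held 1 DEG of 10 (10%), the cofactor synthesis gene Mocs1 (19.4 to 25.9 CPM against 31.1 to 38.7 CPM, -0.53 ± 0.13). A share that rests on 1 gene says little about the list.

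Few markers of other cell types were called, though in such short lists 1 or 2 genes can exceed the 6.62% of all genes. Of 10 red blood cell genes, Hbb, beta globin, rose with 61.5, 69.5 and 60.7 CPM in CTD and 26.7, 9.18, 13.2 and 3.43 CPM in THI (2.29 ± 0.59, adjusted p = 0.0142), and the summed level of the list was 160.4 to 196.2 CPM in CTD, 20.0 to 126.0 CPM in THI and 28.7 to 71.0 CPM in control, with THI + CTD reaching 222.8 CPM. The part of residual blood in the other results was not tested. Of 13 Kupffer cell markers Cd68 (-0.60 ± 0.18) and C1qa (-0.52 ± 0.16) fell (15.4%), and the summed level of the list overlapped, at 466.7 to 729.8 CPM and 575.6 to 914.8 CPM. Kdr (-0.44 ± 0.11) and Cdh5 (-0.43 ± 0.13) fell of 11 endothelial markers (18.2%), and Tagln rose (1.06 ± 0.26) of 12 stellate cell and fibroblast markers (8.33%). In the fit of the 7 libraries alone neither the Kupffer cell nor the endothelial list held a DEG. Without CTD replicate 1 these lists held 3 and 1, respectively. COL4A2, a basement membrane collagen, was higher just past the threshold (0.47 ± 0.15). By edgeR and by DESeq2 no DEG was found among 16 lymphocyte markers of the T and NK lineages, 7 of B or plasma cells, 9 of neutrophils, 8 of pancreas and 5 of adipocytes. An unadjusted p under 0.05 was reached by 1, 2, 1, 0 and 0 of these markers. Of them, 12, 6, 9, 7 and 3 stayed under 1 CPM in every CTD and THI library, where a missing call says little. Cd4 and Lck, IGJ and Cd79b, S100a9 and Csf3r, Cpa1 and Cpb1, and Cidec and Fabp4, the most abundant of each, all overlapped between CTD and THI. The 10 hepatocyte markers, which check the tissue, summed to 154200 to 168900 CPM in CTD and 126500 to 184200 CPM in THI, and among them Cebpa fell by 0.46 on the log2 scale.

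Clock genes, whose transcripts cycle over the day, were also counted. Of 13 genes in phase with Dbp, 1 was called (Wee1, a kinase that also restrains Cdk1, 1.08 ± 0.32), and none of 6 in phase with Arntl by edgeR or DESeq2 (1 at an unadjusted p under 0.05), including Nfil3 (-0.31). CACGTG, the E-box, which is its own reverse complement, was in 2 of 10 promoters of the Dbp phase (20%, against 6.42% of all promoters and 8.69% of those of tested genes), and TTATGTAA, the D-box, with TTACATAA on the other strand, in 0 of 3 of the Arntl phase (against 0.893% and 0.501%).

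The same compounds were compared beside imazalil, at lower doses and in 8 libraries that the direct contrast does not use. IMZ + CTD against THI + IMZ had 13 DEGs (0.0653%), 3 higher and 10 lower, and 1785 genes at an unadjusted p under 0.05. Of the 1317 DEGs of the direct contrast, 877 had the same sign here (66.6%), against 55.4% of the 11297 genes above 1 CPM. Across genes, which are not independent replicates, the log2 fold changes had r = 0.43 among the up-regulated and r = -0.03 among the down-regulated DEGs. The up-regulated DEGs had a median of 0.67 in the direct contrast and 0.12 beside imazalil, and the down-regulated ones -0.52 and -0.05. The cell division list had a median of 0.44 here with no DEG by edgeR, and none at an unadjusted p under 0.05. Its summed level was 73.3 to 191.2 CPM in IMZ + CTD and 37.4 to 211.3 CPM in THI + IMZ, with both mixtures reaching above the control range of 21.1 to 48.5 CPM. The libraries of IMZ alone, at 93 mg/kg bw/day, held 47.3 to 109 CPM, and the part of IMZ in the mixtures was not tested.

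Por and Slbp were DEGs in both contrasts in the same direction. Por measured 106.9, 97.0, 120.9 and 82.3 CPM in IMZ + CTD and 369.7, 274.0, 206.2 and 103.0 CPM in THI + IMZ (-1.23 ± 0.24, adjusted p = 0.0347), where THI + IMZ replicate 4 overlapped. Slbp measured 17.6 to 20.4 CPM and 12.8 to 16.01 CPM, with no overlap (0.44 ± 0.09, adjusted p = 0.0335). Zbtb16, a zinc finger repressor that responds to glucocorticoids, had the largest difference among the 13 DEGs, with 7.04, 3.72, 3.73 and 5.20 CPM in IMZ + CTD and 27.2, 20.4, 34.5 and 22.1 CPM in THI + IMZ (-2.40 ± 0.33, adjusted p = 0.000559). In the direct contrast it overlapped, at 2.89 to 14.3 CPM in CTD and 8.91 to 18.9 CPM in THI (-0.59, adjusted p = 0.358). Cyp2b1 had a larger fitted difference that was not called, with 55.6, 8.12, 6.23 and 4.62 CPM in IMZ + CTD and 373.0, 115.9, 160.8 and 41.1 CPM in THI + IMZ (-3.21 ± 0.88, adjusted p = 0.199). Nr1i2, which encodes PXR itself, measured 69.0 to 98.6 CPM in IMZ + CTD and 112.1 to 132.3 CPM in THI + IMZ (-0.59 ± 0.11, adjusted p = 0.0181), and 0.08 in the direct contrast with an interval of -0.16 to 0.31. Zbtb16, Nr1i2 and Slbp were named after their values were seen.

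**Figure D5:**
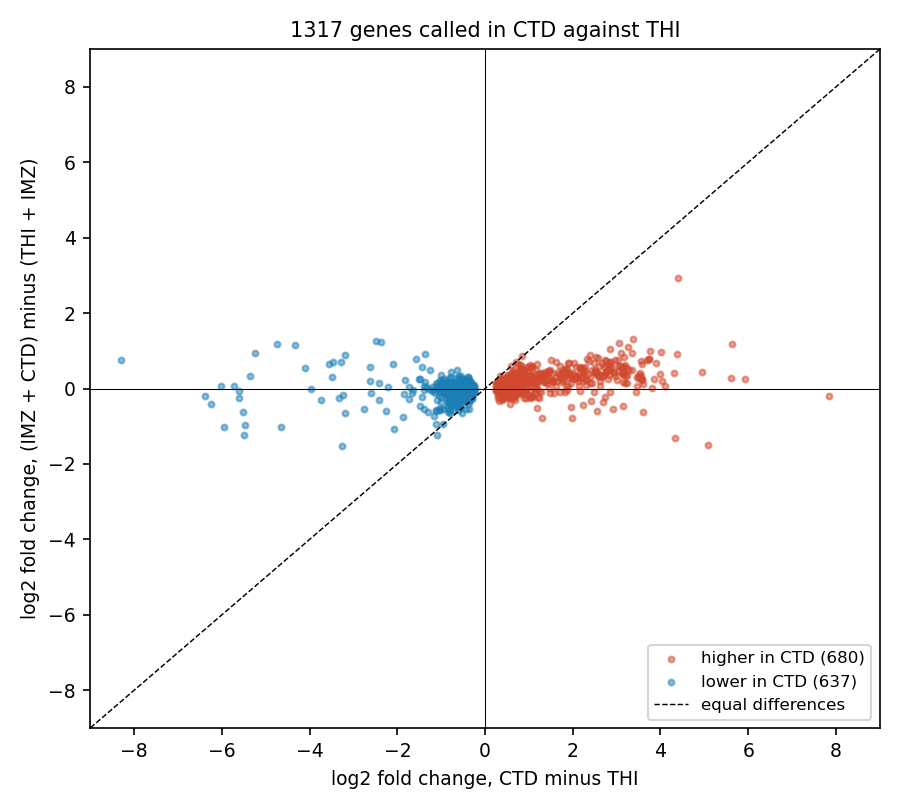
Log2 fold change beside imazalil, (IMZ + CTD) minus (THI + IMZ), against that of CTD minus THI for the 1317 DEGs of the direct contrast (red up-regulated, blue down-regulated); each point is 1 gene and the dashed line marks equal differences. Most genes lie near 0 on the vertical axis, with medians of 0.12 and -0.05, and 66.6% keep their sign.

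The difference between the contrasts was tested itself and was past the threshold for 253 genes (1.27%), 114 higher and 139 lower. It uses the CTD and THI libraries again, so it is not independent of the DEGs above. Among the named genes it was past the threshold for Top2a (3.16, adjusted p = 0.0284), Mcm6 (2.42, adjusted p = 0.0175), ND3 (1.16, adjusted p = 0.00029), Scamp3 (-1.61, adjusted p = 4.46e-09) and Zbtb16 (1.82, adjusted p = 0.0407). For Por it was 0.13 (adjusted p near 1). Dose and imazalil both changed between the contrasts and cannot be told apart.

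The 10 genes that the study chose for PCR or named as most changed were chosen on these samples and are given as levels. Ky, a muscle protein gene, was the DEG among them, with 1.51, 2.20 and 1.48 CPM in CTD, 2.51, 4.75, 3.45 and 7.14 CPM in THI and 11.2 CPM or more in every control (-1.37 ± 0.40, adjusted p = 0.0318), a call that 7 alternative fits did not give. Abcc3, a basolateral efflux transporter, was at 40.6 to 60.0 CPM in CTD, 55.7 to 83.4 CPM in THI and 6.97 to 25.2 CPM in control. Aldh1a1 (253.3 to 488.8 CPM in CTD, 287.1 to 457.9 CPM in THI, 46.8 to 172.0 CPM in control) and the endopeptidase Mme (6.37 to 20.6, 4.38 to 10.9 and 0.271 to 0.830 CPM) overlapped between the compounds, both far above control. Eln, elastin, was at 4.76 to 7.29 CPM in CTD, 4.26 to 6.08 CPM in THI and 5.31 to 20.3 CPM in control. Megf11 (3.77 to 5.18 CPM and 4.74 to 9.40 CPM) overlapped between the compounds as well.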

How the data were processed

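Liver total RNA was sequenced (stranded, ribosome-depleted library kit, paired-end reads). According to the methods and processing notes, the authors trimmed the reads, checked them with FastQC 0.11.5, and mapped and counted them per gene with STAR 2.5.2b on Rnor_5.0; the strand setting is not given in the sources used here. They deposited raw counts per gene (26312 genes) and the signal of the same counts divided by DESeq2 1.15.1 size factors (19904 genes), which equalled the counts after scaling and was used only as a check. Groups came from the sample titles. Here, edgeR 4.0.16 (R 4.3.3) was fitted to the counts of all 31 libraries with TMM scaling and a mean for each of 7 groups; genes with a sum of 2 or more were kept. The SE is the log2 fold change over the square root of F, and the interval is at 95%. Named genes were the 12 highest and 12 lowest DEGs over 1 CPM whose groups did not overlap, up to 3 members a list and direction with the smallest p (or the 2 most abundant), and the 10 genes of the study; 32 others were chosen after their values were seen, and a few genes are not reported here. Members and gene lists were chosen with earlier results of these data known. Of the kept genes 17144 had a symbol; coordinates and promoters are of another build (GRCr8). The fit was tested on simulated data. Alternatives were other scaling, DESeq2 1.42.0, filters, fits of fewer libraries, a replicate block, thinning and leaving out each library.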

Additional observations from a re-analysis of the deposited data

Results flagged for a closer look

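Among the 152 named genes, 10 had a THI library whose gap to the nearest of the other 3 exceeded Dixon's critical value at 95%, where chance gives about 1 in 20. THI replicate 4 was low for Gdf15 (14.9 CPM) and high for Mocs1 (38.7 CPM), Rps24 (102.5 CPM) and Fabp4 (3.52 CPM). THI replicate 3 was high for E2f1 (1.27 CPM) and Tm7sf2 (543.7 CPM) and low for Csf3r (0.0551 CPM). THI replicate 2 was low for Acaa1a (278.7 CPM) and Aldh1a1 (287.1 CPM), and THI replicate 1 for Fam198a (1.05 CPM). The 3 CTD libraries are too few for this rule.

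For 46 named genes the difference between the direct contrast and that beside imazalil was itself past the threshold by edgeR, on the log2 scale, 27 higher and 19 lower. Genes of division and replication were Rrm2 (4.03 and, for its second model RRM2, 3.60), Ckap2 (3.90), Ncapg (3.81), Pbk (3.59), Ttk (3.29), Cdca3 (3.23), Fam111a (3.20), Top2a (3.16), Kif11 (2.76), Cdk1 (2.74), Mcm6 (2.42) and Mcm4 (1.01). Ccne1 (2.87), Ccne2 (2.33), Cdkn1a (2.10), Hist1h2ah (1.53) and Hist1h2bg (1.33) were higher too. Mitochondrial genes were MT-ATP8 (2.68), MT-ND2 (1.30), MT-ND4 (1.27), MT-ND4L (1.26) and ND3 (1.16). The others higher in the difference were Zbtb16 (1.82), Ociad1 (0.80), Nr1i2 (0.67) and Sult1b1 (0.61).

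The lower ones were Gdf15 (-3.62), Rps16 (-2.57), Gsto2 (-2.36), Ky (-2.29), Rab27a (-1.73), Scamp3 (-1.61), Serping1 (-1.40), Slc10a7 (-1.24) and Idh1 (-1.04). Smaller differences were those of Ndufb7 (-0.98), Cd68 (-0.94), Ifi27 (-0.88), Rps28 (-0.65), Hpx (-0.61), Kdr (-0.56), Ndufa3 (-0.53), Cox4i1 (-0.47), Rpl38 (-0.47) and Stat5b (-0.47).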

How the results depend on the processing

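Of the named DEGs, 50 were called in every alternative, 73 lost the call in at least 1 and none changed sign. CTD against THI (1317 DEGs) gave 1796 with DESeq2, 472 in a fit of the 7 libraries alone and 603 to 1309 with a library left out, lowest without CTD replicate 1. The contrast beside imazalil (13) gave 78 with DESeq2, 7 in a fit of its groups alone and 1 to 43 with a library left out, and the difference (253) gave 591, 60 and 103 to 360. Members of all lists (172) numbered 106 in the fit of the groups alone and 73 to 176 with a library left out, DNA replication (24) 15 and 11 to 27, oxidative phosphorylation (13) 3 and 7 to 15, cell division (36) 17 to 37, immediate early genes (6) 1 to 6, and CAR and PXR targets (1) 0 to 3, with 2 by DESeq2 or a stricter filter. The deviations of same-numbered CTD and THI libraries from their group means had correlations of 0.137, 0.0585 and 0.0974. CTD and THI libraries with different numbers had -0.251 to 0.175. Same-numbered libraries of IMZ + CTD and THI + IMZ had 0.247, 0.144, 0.0216 and 0.0383. These few values cannot decide whether a number marks a shared block, and the sample titles give only the number. The replicate block gave 1109, 6 and 147 DEGs in the 3 contrasts and, with the groups alone, 393, 36 and 73, and 99 list members, 14 for DNA replication and 2 for oxidative phosphorylation. With the block the S100a9 log2 fold change, CTD against THI, turned to -0.0391 and, with the groups alone, to -0.18, and Nqo1 to 8.6e-05. Uncalled genes whose sign turned with a library left out were Cyp1a2 (-0.0100 to 0.244), Nqo1 (-0.21 to 0.13), Aldh1a1 (-0.444 to 0.036), Mme (-0.19 to 0.86), Cd4 (-0.156 to 0.0255), IGJ (-0.92 to 0.95), Cd79b (-2.12 to 0.26), S100a9 (-0.48 to 1.04), Csf3r (-0.71 to 0.32) and Cpa1 (-0.88 to 0.25). The cause of these changes was not tested; each fit with a library left out has fewer samples.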
